A study of Mus musculus with 21 samples.

Results

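The genes described here are those of the proteasome, constitutive and immune, in the mouse melanoma line B16-F10, a transplantable pigmented line from C57BL/6J mice. Members were all Affymetrix U74Av2 probe sets that are assigned to 1 gene and whose array symbol starts with Psma, Psmb, Psmc, Psmd or Psme. There were 53 such probe sets for 42 of the 8251 genes measured, and the probe set with the highest mean stood for each gene. They fell into 14 core genes, 20 cap genes, 2 activator genes (Psme3 and Psme4), 4 immune genes (Psmb8, Psmb9, Psmb10 and Psme1) and 2 genes that share the prefix without encoding a subunit (Psmc3ip and Psme3ip1). The immune activator gene Psme2 shares its 2 probe sets with Psme2b and was not analysed here.

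Total RNA was measured on 21 arrays in 9 groups. Cells were held for 24 h at 1% oxygen in a sealed chamber (3 arrays, with 2 control arrays at 21% oxygen), or in experiments 1 and 2 at 1% oxygen in an incubator with regulated gas flow (3 hypoxia and 2 control arrays each). In experiment 3, cells received 100 µM or 200 µM cobalt chloride (CoCl2), a chemical mimic of hypoxia, for 24 h (2 arrays per dose, with 2 control arrays at 21% oxygen). The labels do not give the time for the controls or the oxygen level for the CoCl2 arrays, and the chamber controls were assigned to the chamber because neither carries an experiment number. Values are log2 intensities, so a difference of 1 is a change of 2-fold, and each treated group was compared with the controls of its own set.

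The proteasome is the protease that degrades ubiquitin-tagged proteins in the cytosol and nucleus. Its core is a stack of rings, with alpha subunits (Psma genes) at the ends and beta subunits (Psmb genes) inside, of which Psmb6, Psmb7 and Psmb5 carry the caspase-like, trypsin-like and chymotrypsin-like active sites. A cap binds, unfolds and feeds in the substrate with a ring of ATPases (Psmc genes) and a set of non-ATPase subunits (Psmd genes). Interferon-gamma induces Psmb9, Psmb10 and Psmb8, which replace Psmb6, Psmb7 and Psmb5 in newly built cores, together with the activator subunits Psme1 and Psme2, and this immunoproteasome favours peptides that bind MHC class I. When proteasomes fail, the factor Nfe2l1 raises many subunit genes together through antioxidant response elements.

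The promoters of 6 members are shown because these genes carry the contrasts described here. Psmb3 had the largest rise with CoCl2, Psmd8 rose under every treatment, Psmb5 and Psmb6 encode catalytic subunits, and Psmb8 and Psmb9 encode immune counterparts of them. Each sequence is the 250 bases before the annotated start, 5′ to 3′ along the gene, from RefSeq on GRCm38.p6. Capitals mark matches on either strand to the antioxidant response element core TGACNNNGC, the NF-Y box CCAAT, the interferon-stimulated response element (GAAA, any 2 bases, GAAA) and the STAT site TTCNNNGAA.
Psmb3, chr11:97703184-97703433, plus strand: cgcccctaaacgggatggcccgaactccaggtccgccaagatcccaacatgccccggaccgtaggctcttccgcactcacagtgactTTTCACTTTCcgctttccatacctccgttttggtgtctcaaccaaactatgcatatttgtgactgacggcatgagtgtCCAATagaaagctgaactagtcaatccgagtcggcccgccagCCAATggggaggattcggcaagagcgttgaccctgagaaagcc
Psmb5, chr14:54617996-54618245, minus strand: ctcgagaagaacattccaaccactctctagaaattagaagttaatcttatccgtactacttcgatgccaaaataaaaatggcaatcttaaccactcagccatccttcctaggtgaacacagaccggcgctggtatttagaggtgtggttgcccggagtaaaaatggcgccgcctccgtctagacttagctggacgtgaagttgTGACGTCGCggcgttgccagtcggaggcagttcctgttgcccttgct
Psmb6, chr11:70525107-70525356, plus strand: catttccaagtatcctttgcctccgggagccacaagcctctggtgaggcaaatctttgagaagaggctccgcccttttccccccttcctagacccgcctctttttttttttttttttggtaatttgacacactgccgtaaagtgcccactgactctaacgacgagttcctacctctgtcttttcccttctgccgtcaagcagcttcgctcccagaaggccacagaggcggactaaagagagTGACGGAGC
Psmd8, chr7:29180674-29180923, minus strand: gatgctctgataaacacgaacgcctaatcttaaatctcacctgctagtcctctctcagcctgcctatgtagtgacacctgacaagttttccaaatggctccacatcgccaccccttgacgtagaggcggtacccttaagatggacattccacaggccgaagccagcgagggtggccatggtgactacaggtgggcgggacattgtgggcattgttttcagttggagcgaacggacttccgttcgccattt
Psmb8, chr17:34197945-34198194, plus strand: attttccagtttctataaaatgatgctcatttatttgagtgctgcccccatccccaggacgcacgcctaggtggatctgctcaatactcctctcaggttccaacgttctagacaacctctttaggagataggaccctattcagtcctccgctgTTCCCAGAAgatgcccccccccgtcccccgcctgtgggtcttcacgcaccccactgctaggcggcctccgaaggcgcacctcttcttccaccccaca
Psmb9, chr17:34187331-34187580, minus strand: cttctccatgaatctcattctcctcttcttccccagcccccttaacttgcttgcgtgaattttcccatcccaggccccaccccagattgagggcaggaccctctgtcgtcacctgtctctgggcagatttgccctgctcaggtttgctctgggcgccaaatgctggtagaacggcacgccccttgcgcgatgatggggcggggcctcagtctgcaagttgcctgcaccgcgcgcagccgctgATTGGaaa

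With positions counted from the annotated start, the antioxidant element began at -47 in Psmb5 and at -9 in Psmb6, and the CCAAT boxes of Psmb3 began at -85 and -43. The STAT match of Psmb8 began at -97. Windows of 300 bases (250 before and 50 after the start) were at hand for 36 of the 42 members. TGACNNNGC was found in 5 of 28 core and cap windows (Psmb5, Psmb6, Psmc6, Psmd12 and Psmd9) in 14.0% of all 27025 genes with a window and in 16.9% of the 6576 of these that are on the array. CCAAT was found in 11 of the 28, in 41.1% of all windows and in 42.5% of those on the array. The interferon-stimulated element was found in 3 of the 28 (Psmb3, Psmd4 and Psmd9), in Psme1, in 3.99% of all windows and in 3.89% of those on the array. TTCNNNGAA was found in Psmd2, in Psmb8, in 9.55% of all windows and in 8.50% of those on the array. The cores of the hypoxia response element, ACGTG and GCGTG, were found in 6 and 14 of the 28 core and cap windows. They were found in 27.8% and 52.0% of the windows of genes on the array, and in 21.8% and 35.2% of all windows, so neither was more frequent here than on the array. In Psmb5 ACGTG began at -58. These matches are letters only, and no binding was measured.

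The arrays carried the identity given in the labels, with conditions that also separated the sets. Of 10 melanocyte markers 8 were measured, and their summed log2 value was 66.5 to 69.1 in control and hypoxia arrays, 57.6 to 58.7 at 100 µM CoCl2 and 48.7 to 49.8 at 200 µM. Tyrosinase (Tyr), a pigment enzyme, fell by 3.32 ± 0.29 (SE) at 200 µM. The 14 measured leukocyte markers, of cells rich in immune subunits, summed to 59.6 to 63.8 in control and hypoxia arrays, 63.0 to 66.3 at 100 µM and 62.3 to 64.3 at 200 µM. As a measure of RNA integrity, the value of the Actb control at the 3′ end minus that at the 5′ end was 0.15 to 0.50 in the control and hypoxia arrays of the chamber set and of experiments 1 and 2. It was 1.41 and 1.62 in the controls of experiment 3, 2.36 and 2.16 at 100 µM, and 1.47 and 0.50 at 200 µM. In bulk RNA of this kind, fewer cells of a type and less RNA per cell cannot be told apart. The labels call the arrays biological replicates without saying that each came from its own culture, so a p-value here sets a difference against the scatter of these arrays only.

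Under hypoxia most proteasome genes lay slightly lower, with 1 clear exception. Averaged over the 3 hypoxia sets, 19 of 42 members fell and 1, Psmd8, rose (limma, adjusted p under 0.05). Of all genes 32.0% passed, with 19.5% of all genes lower and 12.6% of all genes higher. The median change of the members was -0.16, against 0.01 over all genes. By class, 7 of 14 core genes fell (median -0.25), and 9 of 20 cap genes fell and 1 rose (median -0.13). Of 4 immune genes 1 fell (median -0.01). Within single sets 5 of 14 core genes fell in the chamber and 0 in each incubator experiment. The direction was negative in each of the 3 sets for 21 members, of which Psmb10, Psmc3ip and Psmd6 passed the test in each set. The share of all genes with such agreement between sets was not computed.

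**Figure D1:**
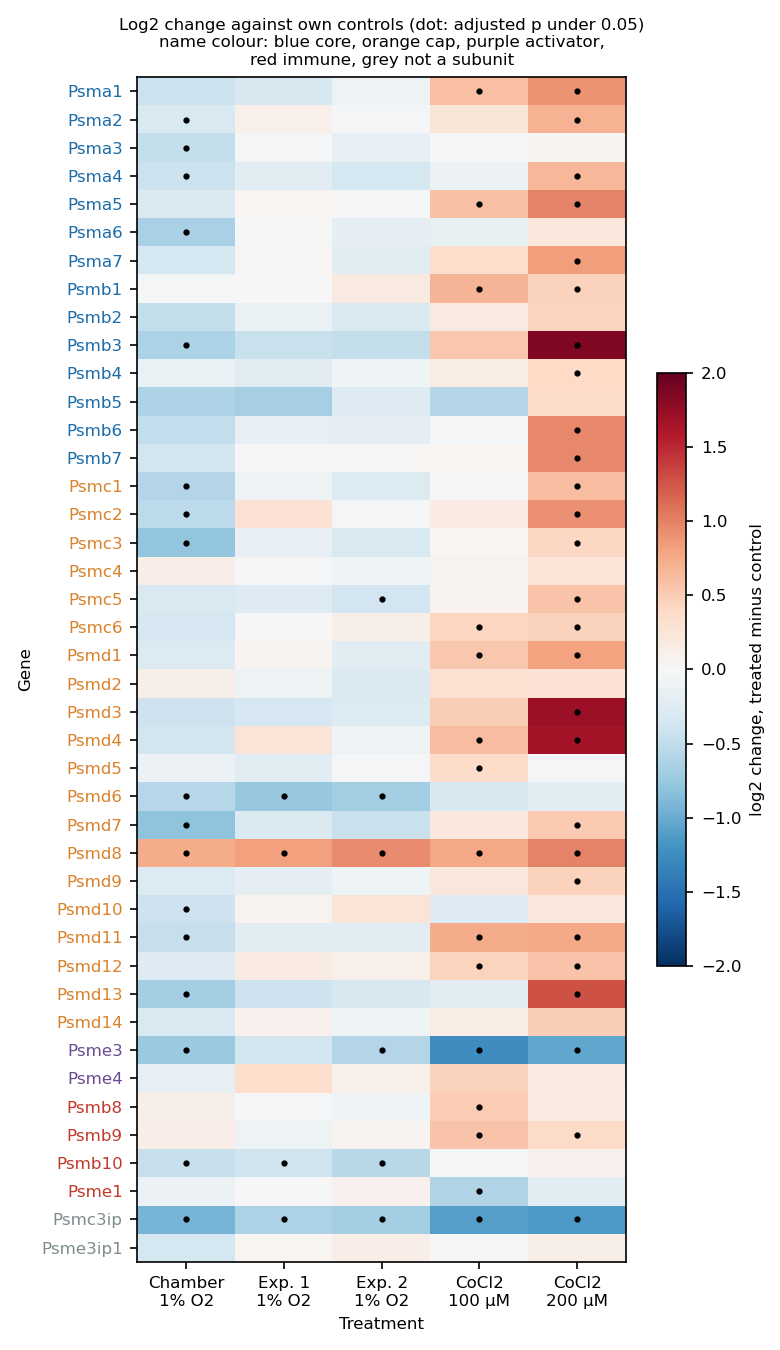
Log2 change of each of the 42 members (vertical axis) against its own controls under 5 treatments (horizontal axis), as colour from -2 to 2. Dots mark adjusted p under 0.05. Psmd8 has a dot in every column, most names are pale blue in the hypoxia columns, and the core and cap names are mostly red at 200 µM CoCl2.

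In the alpha ring, which gates entry to the core, 4 of 7 genes fell in the mean of the sets. Psma4 fell by 0.33 ± 0.08 (SE, limma adjusted p = 0.00404), and Psma1, Psma6 and Psma3 fell by 0.28, 0.28 and 0.22. Psma6 held its chamber arrays at 9.04, 9.26 and 9.30, below its chamber controls at 9.92 and 9.79. In experiment 1 the Psma6 arrays read 9.32, 9.37 and 9.10 against controls of 9.19 and 9.33, so there the groups overlapped.

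Of the constitutive beta subunits 3 of 7 fell. Psmb3, a beta subunit without an active site, read 9.70, 9.36 and 9.57 in the chamber against 10.08 and 10.25 in its controls. It read 9.13, 9.47 and 9.01 against 9.78 and 9.51 in experiment 1, and 9.55, 9.54 and 9.39 against 10.02 and 9.94 in experiment 2. All hypoxia arrays of Psmb3 lay below the controls of their own set, and the mean fall was 0.52 ± 0.12 (limma adjusted p = 0.00206). The catalytic Psmb5 fell by 0.51 ± 0.14 (limma adjusted p = 0.0053) on its brighter probe set, while its second probe set changed by 0.01 ± 0.07. Psmb6 and Psmb7, the other catalytic subunits, changed by -0.28 ± 0.13 and -0.13 ± 0.09 and did not pass the test. Psmb2 fell by 0.30, and Psmb1 changed by 0.05 ± 0.05.

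Among the 6 cap ATPases, which unfold the substrate, Psmc3, Psmc1 and Psmc5 fell by 0.42, 0.32 and 0.31. Psmc3 showed 7.64, 7.51 and 7.72 in the chamber against controls of 8.38 and 8.43, a gap larger than in the incubator sets. There it read 7.79, 8.01 and 7.62 against 7.99 and 7.95 in experiment 1, with overlap, and 7.85, 7.94 and 7.95 against 8.16 and 8.28 in experiment 2, without overlap. All 3 probe sets of Psmc3 fell in the mean of the sets. Psmc2, Psmc4 and Psmc6 changed by -0.08, 0.00 and -0.07 and did not pass the test. The 1 probe set of Psmc4 read only 2.915 to 3.345 over all arrays. Without detection calls, whether it is above background is not known.

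Among core and cap genes, the largest rise and the largest fall in the hypoxia mean were both in non-ATPase cap genes. Psmd8, a scaffold subunit of the cap's lid, read 10.06, 9.86 and 10.09 in the chamber against 9.23 and 9.29 in its controls. In experiment 1 it read 10.03, 10.16 and 9.93 against 9.10 and 9.34, and in experiment 2 it read 10.21, 10.13 and 10.28 against 9.17 and 9.34. The 9 hypoxia arrays of Psmd8 thus lay above all 6 controls of these sets, and its mean rise was 0.84 ± 0.07, or 1.79-fold (limma adjusted p = 3.14e-09).

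Psmd6, a lid scaffold subunit of the same domain type, moved the other way. It read 8.45, 8.23 and 8.30 in the chamber against 8.92 and 8.85, 8.01, 8.31 and 7.72 against 8.87 and 8.68 in experiment 1, and 7.97, 8.05 and 8.30 against 8.68 and 8.91 in experiment 2. No hypoxia array of Psmd6 reached a control of its set, and the fall was 0.67 ± 0.08 (limma adjusted p = 1.06e-06). Psmd7, the structural partner of the deubiquitinase Psmd14, fell by 0.51 ± 0.09, and the lid subunit Psmd13 fell by 0.47 ± 0.11. Psmd11, Psmd3 and Psmd9 also fell, by 0.30, 0.34 and 0.19, while Psmd14 changed by -0.10 ± 0.11. Psmd9, like Psmd5 and Psmd10, encodes a chaperone of cap assembly rather than a stable subunit.

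**Figure D2:**
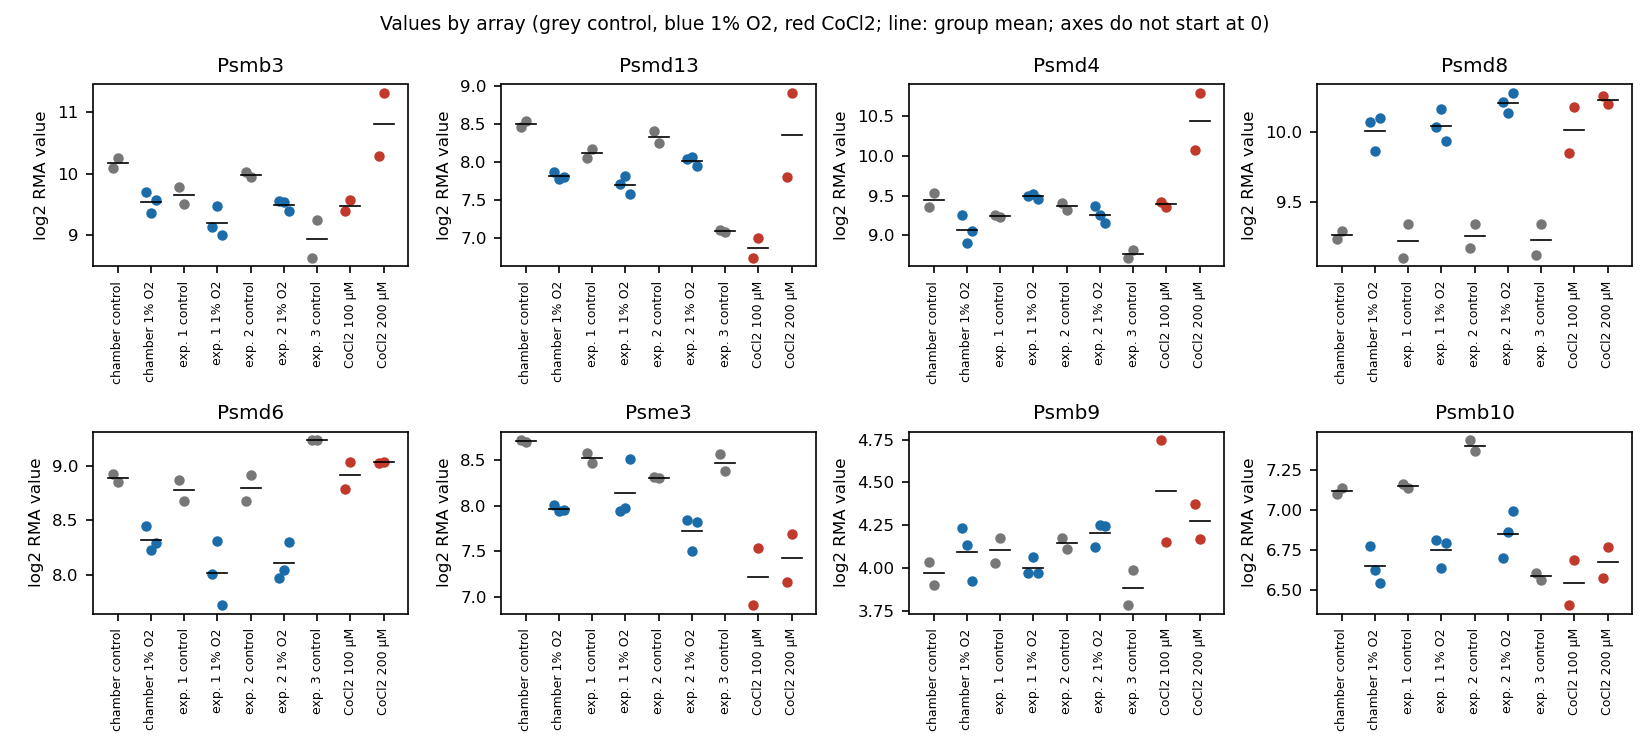
Log2 value (vertical axis, not from 0) of each of the 21 arrays for 8 members, by group (horizontal axis), with controls in grey, 1% oxygen in blue, CoCl2 in red and a line at each group mean. Psmd8 rises by 0.84 in the mean of the hypoxia sets and Psmd6 falls by 0.67, while Psmb3, Psmd13 and Psmd4 lie above their low controls of experiment 3 at 200 µM CoCl2. The Psmd13 mean at 200 µM (8.36) is below that of the chamber controls (8.50).

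The sets differed in the number of members that passed the test. In the chamber 16 members fell and 1 rose, where 23.0% of all genes passed (15.1% fell and 7.96% rose), and the member median was -0.37. In experiment 1, 3 fell and 1 rose, where 18.3% of all genes passed, 10.7% lower and 7.57% higher (member median -0.10). In experiment 2, 5 fell and 1 rose, where 15.3% of all genes passed, 7.79% lower and 7.55% higher (member median -0.13). With both directions together, 40.5% of the members passed in the chamber, 9.52% in experiment 1 and 14.3% in experiment 2. In the incubator experiments this was below the share of all genes. The strongest falls in the chamber were those of Psmc3ip (-0.93), Psmd7 (-0.81), Psmc3 (-0.78), Psme3 (-0.74) and Psmd13 (-0.68). Without chamber control array 1 or array 2 the chamber count was 8 or 7, and without 200 µM array 1 or array 2, which only enter the shared estimate of spread, it was 26 each time. In the same way the count of experiment 1 was 2 without either of its control arrays and 7 without either 200 µM array. That of experiment 2 was 3 without its control array 2 and 10 without either 200 µM array.

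Taken array by array, the 34 core and cap genes sat lowest in the chamber. Their median, relative to the mean of the own controls, was -0.40, -0.47 and -0.35 in the 3 chamber arrays. It was -0.15, -0.02 and -0.13 in experiment 1, and -0.19, -0.13 and -0.10 in experiment 2. Over all genes the medians were 0.07, 0.07 and 0.04 in the chamber. They were -0.01, -0.07 and -0.01 in experiment 1, and -0.04, -0.03 and -0.02 in experiment 2. In array 2 of experiment 1 the core and cap median thus lay above that of all genes. All chamber arrays lay below both controls for 30 of the 34 genes, where 28.9% of all genes did so, and above both for 2 (38.1% of all genes). In experiment 1 all arrays lay below for 12 of 34 (26.1% of all genes) and above for 2 (19.3%), and in experiment 2 below for 17 of 34 (25.7%) and above for 3 (19.4%). The chamber change was below both incubator changes for 32 of the 42 members and for 33.4% of all genes.

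The direct test of the chamber change against the mean incubator change did not call any member. With limma 0 of 42 passed, where 2.16% of all genes did and 1.78% were lower in the chamber, and 12 members, all lower in the chamber, had an unadjusted p under 0.05. The member median of this difference was -0.26, against 0.05 over all genes, and the lowest value was that of Psmc2 at -0.65 ± 0.21 (adjusted p = 0.101). The count was 3 with the Actb difference as a covariate (4.79% of all genes). It was 8 with only the hypoxia sets in the fit (12.5%) and 13 with array weights (22.7%). Between experiments 1 and 2, limma called 0 members, where 0.327% of all genes passed, and 0 had an unadjusted p under 0.05. That count was 0 under each alternative run.

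**Figure D3:**
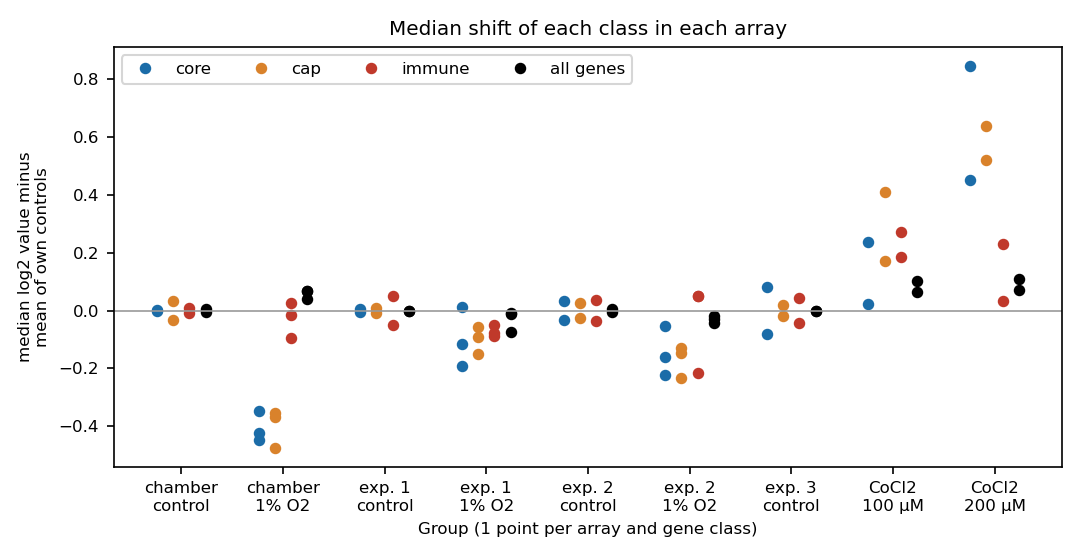
Median over core, cap, immune and all genes of the log2 value minus the mean of the own controls (vertical axis), 1 point per array and class, by group (horizontal axis). The medians of core and cap lie between -0.35 and -0.47 in the chamber arrays and are the highest at 200 µM CoCl2, while the points of all genes stay near 0.

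With CoCl2 more members rose than fell, and more rose at the higher dose than at the lower. At 200 µM 25 of 42 members rose and 2 fell (limma), where 42.0% of all genes passed (19.7% rose and 22.3% fell), and the member median was 0.46 against 0.11 over all genes. At 100 µM 12 rose and 3 fell, where 38.4% of all genes passed (17.6% rose and 20.7% fell), and the median was 0.17 against 0.10. From 100 to 200 µM 15 rose and 1 fell, where 16.7% of all genes passed (7.83% rose and 8.85% fell). At 200 µM 10 of 14 core genes rose (median 0.68), as did 14 of 20 cap genes (median 0.55), and no core or cap gene fell. Both 200 µM arrays lay above both controls for 27 of the 34 core and cap genes (40.7% of all genes did so) and below for 1 (28.9%). At 100 µM this held for 16 above (37.8%) and 3 below (27.0%). The highest 5 at 200 µM were Psmb3, Psmd3, Psmd4, Psmd13 and Psma5.

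Among the alpha genes 5 of 7 rose at 200 µM and 2 of 7 at 100 µM. Psma5 read 9.05 and 8.88 in the controls, 9.44 and 9.66 at 100 µM, and 9.73 and 10.19 at 200 µM. Its groups did not overlap, and it rose by 0.59 ± 0.13 and by 1.00 ± 0.13 (limma adjusted p = 0.00171 and 3.24e-06). With the Actb difference as a covariate the changes were 0.93 and 0.76. The slope of this covariate rests mainly on the gap between the 200 µM arrays (1.47 and 0.50). At 100 µM the Actb difference (2.36 and 2.16) lay above that of the controls (1.41 and 1.62). Covariate and dose therefore cannot be told apart at 100 µM. This limit holds for all covariate values given here for 100 µM and for the dose step, which are not corrected dose effects. Psma1 rose by 0.60 and 0.90 at the 2 doses (0.69 at 100 µM with the covariate, adjusted p = 0.0605), and Psma3 changed by 0.00 and 0.06.

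Psmb3 rose most of all members at 200 µM. It read 8.63 and 9.24 in the controls of experiment 3, 9.40 and 9.56 at 100 µM, and 10.28 and 11.30 at 200 µM. Both arrays at 200 µM lay above all others of the set, and the change was 1.85 ± 0.23 (limma adjusted p = 1.18e-06). The catalytic genes Psmb6 and Psmb7 rose by 0.97 ± 0.24 and 0.95 ± 0.17 at 200 µM, after changes of -0.03 and 0.03 at 100 µM. With the Actb difference as a covariate the changes at 100 µM were 0.71 for Psmb6 (adjusted p = 0.0594) and 0.62 for Psmb7 (adjusted p = 0.008). Psmb7 at 200 µM was then 0.54, and it was 0.58 without 200 µM array 2. Psmb6 read 8.08 and 8.62 in the controls and 8.67 and 9.96 at 200 µM, so its first array lay just above the higher control. Psmb5 read 7.64 and 7.28 in the controls, 6.42 and 7.32 at 100 µM, and 7.32 and 8.35 at 200 µM, with overlap at both doses. It passed the test at neither dose (-0.59 ± 0.26 and 0.38 ± 0.26), but rose from the lower to the higher dose by 0.96 ± 0.26 (limma adjusted p = 0.0127). This step was -0.52 ± 0.34 with the covariate (adjusted p = 0.534) and 0.45 ± 0.25 without 200 µM array 2 (adjusted p = 0.352).

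In the cap, 5 of 6 ATPase genes rose at 200 µM, led by Psmc2 at 0.91 ± 0.18. The dim Psmc4 changed by 0.26 there and did not pass the test. At 100 µM 1 of 6 rose (Psmc6, 0.43 ± 0.15, and 0.36 with the covariate, adjusted p = 0.28). Of 14 non-ATPase genes 9 rose at 200 µM and 6 at 100 µM. Psmd4, a ubiquitin receptor, read 8.71 and 8.82 in the controls, 9.42 and 9.36 at 100 µM, and 10.07 and 10.79 at 200 µM, with no overlap between the 3 groups. It rose by 0.62 ± 0.16 (1.03 with the covariate) and by 1.66 ± 0.16, or 3.17-fold at the higher dose (limma adjusted p = 0.0045 and 2.66e-08). The lid subunit Psmd3 read 7.89 and 7.85 in the controls, 8.36 and 8.38 at 100 µM, and 8.96 and 10.20 at 200 µM. It rose by 1.71 ± 0.22 at 200 µM, whereas its change of 0.50 ± 0.22 at 100 µM did not pass the test. With the covariate the latter was 1.29 (adjusted p = 5.73e-05), under the limit given above for covariate values at 100 µM.

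The step between the doses was largest for Psmd13 in the fit without a covariate. It read 7.11 and 7.07 in the controls, 6.73 and 6.997 at 100 µM, and 7.80 and 8.91 at 200 µM, so the lower dose lay below the controls and the higher dose above them. The step was 1.49 ± 0.21 (limma adjusted p = 3.85e-05), followed by Psmb3 (1.31), Psmd3 (1.21), Psmd4 (1.04) and Psmb6 (1.00). With the Actb covariate these 5 steps were 0.27, 0.34, -0.14, 0.35 and -0.26, none past the test, and the Psmd13 change at 100 µM was 0.49 in place of -0.22. Without 200 µM array 2 they were 0.94, 0.80, 0.59, 0.68 and 0.36, the last not past the test (adjusted p = 0.262). On its brightest probe set Psmd11 did not follow the dose. It read 9.81 and 9.72 in the controls, 10.45 and 10.56 at 100 µM, and 10.55 and 10.50 at 200 µM. That set rose by 0.74 ± 0.12 and 0.76 ± 0.12, and its step was 0.02 ± 0.12. The set next in brightness rose by 0.75 and 1.44, with a step of 0.69 ± 0.16 (limma adjusted p = 0.00645). The dimmest set of Psmd11 changed by 0.41 and 0.31 with a step of -0.11 ± 0.16, none past the test.

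Psmd8 rose here as well. It read 9.12 and 9.34 in the controls, 9.84 and 10.17 at 100 µM, and 10.25 and 10.20 at 200 µM, with changes of 0.78 ± 0.13 and 0.99 ± 0.13. Psmd5, the assembly chaperone, rose by 0.37 ± 0.11 at 100 µM and was the 1 member that fell from the lower to the higher dose, by 0.41 ± 0.11. Neither of these Psmd5 calls held with the covariate (0.24 at 100 µM and -0.18 for the step), and the step did not pass without 200 µM array 2 (-0.31). At both doses 10 of 42 members rose, and 15 passed the test as higher at 200 µM and not at 100 µM. Psmb8 and Psmd5 passed as higher at 100 µM and not at 200 µM. For these joint counts the share of all genes was not computed.

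The level of experiment 3 itself differed from the other sets for many of these genes. Its controls lay at least 0.5 below the mean of the other controls for 12 members (6.93% of all genes), among them Psmd3 (by -1.29), Psmb5 (-1.26), Psmd13 (-1.22), Psmb6 (-1.19) and Psmb3 (-0.99). They lay at least 0.5 above it for 7 members (9.51% of all genes), namely Psma3, Psma6, Psmc6, Psmd1, Psmd5, Psmd14 and Psme4. Array 2 at 200 µM had an Actb difference of 0.5001, just above the highest array of the hypoxia sets (0.4961, a chamber control). It lay above array 1 by 0.5 or more for 15 members (7.84% of all genes). Low controls and a higher array 2 both held for 10 members (4.17% of all genes). Over the 42 members the offset of the controls and the gap between both 200 µM arrays had Pearson's r = -0.871, and over all 8251 genes r = -0.502. This is a description across genes that share the same arrays. With the Actb difference as a covariate 21 members rose at 200 µM and the dose step called 0. Without array 2 at 200 µM 21 rose at 200 µM and the dose step called 6.

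Of the 25 members that rose at 200 µM, 19 also rose in both of these settings, and Psma4, Psmb4, Psmb6, Psmc1, Psmc3 and Psmd7 did not in at least 1 of them. Psmb3 had a change of 1.45 with the covariate and 1.34 without array 2, and Psmd4 had 1.38 and 1.31. Psmd3 changed by 1.15 and 1.09, and Psmd13 by 0.76 and 0.71. Psmb6 was 0.44 (adjusted p = 0.117) and 0.32 (adjusted p = 0.147), so its call was lost in both. Psmd8 was 1.01 and 1.02 in these settings. The settings are not separate checks. Within groups the Actb difference varied most between the 200 µM arrays (1.47 and 0.50). The covariate therefore rests mainly on the same array that the other setting leaves out. With only the arrays of experiment 3 in the fit, 13 of the 25 passed at 200 µM. At 100 µM that fit called 3 members as higher (Psmb1, Psmd8 and Psmd11) and 2 as lower (Psme3 and Psmc3ip), where 14.5% of all genes passed. The calls at 100 µM of Psma1, Psma5, Psmd4, Psmb8, Psmb9 and Psme1 were among those lost.

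**Figure D4:**
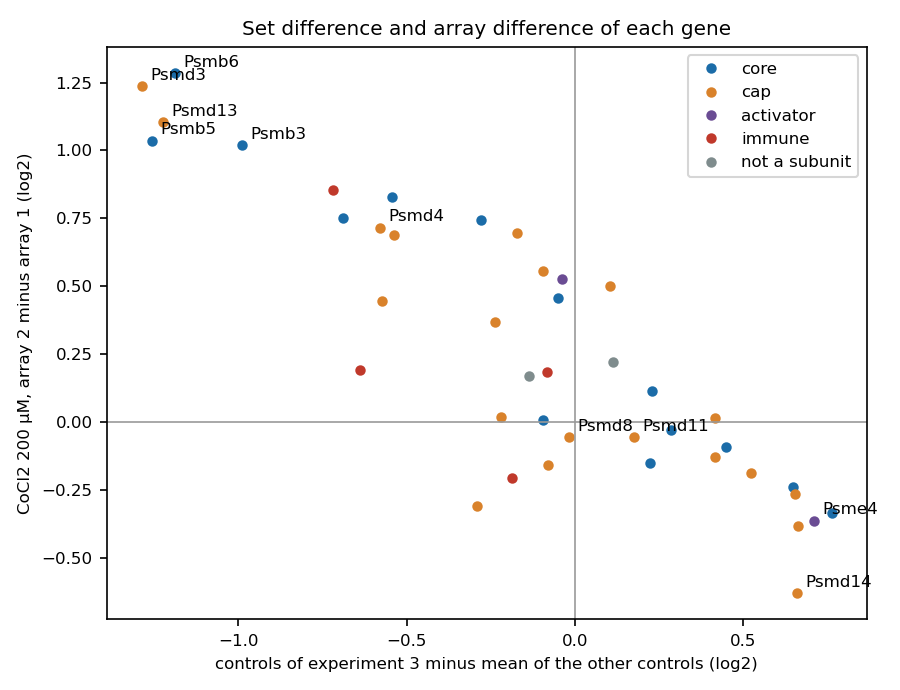
For each of the 42 members, the mean log2 value of the experiment 3 controls minus that of the other controls (horizontal axis) against array 2 minus array 1 at 200 µM CoCl2 (vertical axis), coloured by class. Points run from Psmd3 at upper left (-1.29 and 1.24) to Psmd14 at lower right (0.66 and -0.63), with Psmd8 near 0 on both axes.

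Of the activators, Psme3 fell under both treatments. It encodes the nuclear activator ring that opens the core without ATP. Its chamber arrays read 8.00, 7.94 and 7.95 against 8.71 and 8.69, and those of experiment 2 read 7.84, 7.50 and 7.82 against 8.31 and 8.30, without overlap. In experiment 1 the arrays read 7.93, 7.97 and 8.51 against 8.57 and 8.47, so the third array lay between both controls. With CoCl2 it read 6.91 and 7.53 at 100 µM and 7.16 and 7.69 at 200 µM against 8.57 and 8.37. The falls were 0.57 ± 0.10 in the hypoxia mean, 1.25 ± 0.20 at 100 µM and 1.04 ± 0.20 at 200 µM (limma adjusted p = 0.000161, 3.64e-05 and 0.000193). With the Actb covariate the change at 100 µM was -0.78 (adjusted p = 0.0225). Psme4, the other activator, changed by 0.10 ± 0.12, 0.46 ± 0.24 and 0.17 ± 0.24 and did not pass the test.

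Psmc3ip, named for its binding to Psmc3 and known as a factor of meiotic recombination, is no subunit and fell throughout. It fell by 0.75 ± 0.10 in the hypoxia mean, by 1.10 ± 0.18 at 100 µM and by 1.15 ± 0.18 at 200 µM. Its controls read 4.67 to 5.26 and its treated arrays 3.58 to 4.55, so no treated array reached a control. Psme3ip1, an interactor of Psme3, changed by -0.06, 0.00 and 0.12.

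Of the immune genes, Psmb10 fell in hypoxia, Psmb8 and Psmb9 rose and Psme1 fell at 100 µM, and Psmb9 rose at 200 µM, as did its counterpart Psmb6. The difference between immune and constitutive genes was not tested. Psmb8 and Psmb9, the counterparts of Psmb5 and Psmb6, had values among the low ones of the arrays. Psmb8 read 3.48 to 4.04 over the 15 arrays of the hypoxia sets, and its hypoxia mean changed by 0.00 ± 0.08. It read 3.93 and 3.60 in the controls of experiment 3, 4.49 and 4.06 at 100 µM, and 3.84 and 4.02 at 200 µM. It rose by 0.51 ± 0.16 at 100 µM (limma adjusted p = 0.0167) and changed by 0.17 ± 0.16 at 200 µM. With quantile normalisation the change at 100 µM was 0.36 (adjusted p = 0.0775), and the call was also lost with array weights. No detection call was used here, so whether values this low are above background is not known.

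Psmb9 read 3.90 to 4.25 in the hypoxia sets, with a mean change of 0.03 ± 0.08. In experiment 3 it read 3.78 and 3.99 in the controls, 4.75 and 4.15 at 100 µM, and 4.37 and 4.17 at 200 µM. Both doses lay above the controls, and the changes were 0.57 ± 0.15 and 0.39 ± 0.15 (limma adjusted p = 0.00576 and 0.0445). The call at 200 µM was lost under 17 of the alternatives, with adjusted p of up to 0.273, among them quantile normalisation (0.29, adjusted p = 0.101), array weights, the replicate block (adjusted p = 0.0521) and only the arrays of experiment 3 in the fit (adjusted p = 0.24). With the Actb covariate the change at 100 µM was 0.36 (adjusted p = 0.24). Without 100 µM array 1 or experiment 3 control array 1 the call at 100 µM was lost for Psmb9, and without 100 µM array 1 or control array 2 it was lost for Psmb8. At 100 µM 4 of 14 leukocyte markers also rose (Cd3e, Cd52, Cd79a and Itgb2) and none fell, where 17.6% of all genes rose, and at 200 µM 2 rose and 1 fell. Their part in the values of Psmb8 and Psmb9 was not tested.

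Psmb10, the counterpart of Psmb7, had higher values and fell in each hypoxia set. It read 6.78, 6.62 and 6.54 in the chamber against 7.10 and 7.13, 6.81, 6.64 and 6.79 in experiment 1 against 7.16 and 7.13, and 6.70, 6.86 and 6.99 in experiment 2 against 7.44 and 7.37. All 9 hypoxia arrays lay below all 6 controls of these sets, and the fall was 0.47 ± 0.07 (limma adjusted p = 5.64e-06). With CoCl2 it read 6.40 and 6.68 at 100 µM and 6.58 and 6.77 at 200 µM against 6.60 and 6.57, with changes of -0.04 ± 0.12 and 0.09 ± 0.12. The experiment 3 controls of Psmb10 lay near the hypoxia arrays of the other sets, by -0.64 from the mean of the other controls.

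Psme1, an activator subunit induced with the immune subunits, changed by -0.01 ± 0.10 in hypoxia. It read 6.24 and 6.53 in the controls of experiment 3, 5.71 and 5.86 at 100 µM, and 5.73 and 6.58 at 200 µM. It fell by 0.60 ± 0.18 at 100 µM (limma adjusted p = 0.0146), where the groups did not overlap, and changed by -0.22 ± 0.18 at 200 µM. Without 200 µM array 2 the latter was -0.65 (adjusted p = 0.00263), and with the Actb covariate it was -0.61 (adjusted p = 0.00812). With the covariate the change at 100 µM was -0.06 (adjusted p = 0.879). The call at 100 µM was also lost with array weights, without 100 µM array 1 and without control array 2 of experiment 3.

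The responses to CoCl2 and to hypoxia were compared directly as the mean CoCl2 change minus the mean hypoxia change. This difference was positive past the test for 26 of 42 members and negative for 1, where 25.4% of all genes passed, 9.33% positive and 1322 of the 8251 genes negative, and the median was 0.52 against 0.09 over all genes. The highest were Psmb3 (1.72 ± 0.24), Psmd3 (1.44 ± 0.23), Psmd4 (1.22 ± 0.16), Psmd11 (1.06 ± 0.13) and Psma1 (1.03 ± 0.18). The negative one was Psme3 (-0.58 ± 0.20, limma adjusted p = 0.0377). Psmd8 differed by 0.05 ± 0.13 between the treatments. CoCl2 was run in experiment 3 only, so treatment and set cannot be told apart in this difference.

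For 11 members a fall in the hypoxia mean met a rise at 200 µM, namely Psma1, Psma4, Psmb3, Psmc1, Psmc3, Psmc5, Psmd3, Psmd7, Psmd9, Psmd11 and Psmd13. Psmc3ip and Psme3 fell in both, Psmd8 rose in both, and 6 members fell in hypoxia without passing at 200 µM (Psma3, Psma6, Psmb2, Psmb5, Psmb10 and Psmd6). Another 13 rose at 200 µM without passing in hypoxia, and 9 passed in neither. The share of all genes with each of these patterns was not computed, so the counts have no background beside them. With the Actb covariate the 200 µM calls of Psma4, Psmc1, Psmc3 and Psmd7 were lost. Here too treatment and set cannot be told apart.

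**Figure D5:**
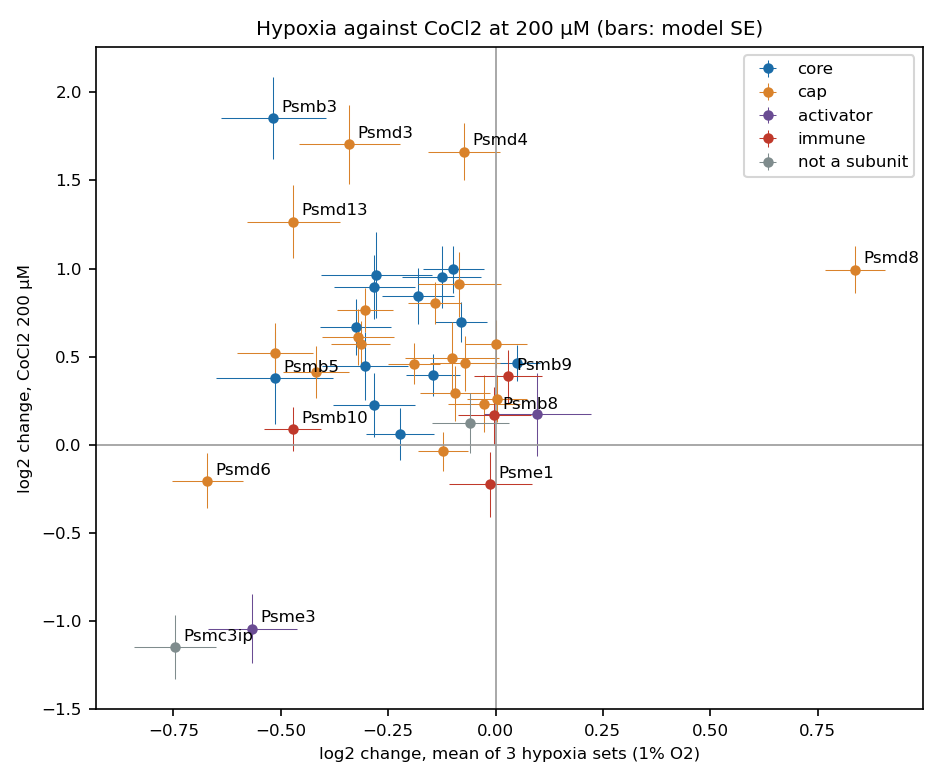
Log2 change in the mean of 3 hypoxia sets (horizontal axis) against log2 change at 200 µM CoCl2 (vertical axis) for the 42 members, with SE bars and colours by class. Most core and cap genes lie at upper left, Psmd8 alone lies far at upper right (0.84 and 0.99), and Psme3 and Psmc3ip lie at lower left.

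Genes that build, load or control the proteasome were read from lists of named genes, and did not share 1 direction. The counts of each list are to be read against all genes, of which 12.6% rose and 19.5% fell in hypoxia, 17.6% rose and 20.7% fell at 100 µM, and 19.7% rose and 22.3% fell at 200 µM. Of 6 measured genes of proteasome assembly and inhibition, 2 fell in hypoxia and at 100 µM, and 2 rose and 2 fell at 200 µM. Psmg1 and Psmg2, a pair of chaperones that builds the alpha ring, fell in hypoxia (-0.69 and -0.41), at 100 µM (-1.01 and -1.41) and at 200 µM (-0.74 and -1.64). Pomp, the maturation factor of the beta ring, rose by 0.65 ± 0.16 at 200 µM, as did Ecpas, a proteasome-binding scaffold, by 0.55.

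Of 10 measured ubiquitin receptors and cap-bound enzymes, 0 rose and 4 fell in hypoxia, and 2 rose and 3 fell at each CoCl2 dose. Zfand2a, a heat- and arsenite-inducible cap-binding protein, rose by 1.93 ± 0.14 at 100 µM and 2.43 ± 0.14 at 200 µM (limma adjusted p = 3.09e-10 and 4.99e-12) and fell by 0.20 in hypoxia. The deubiquitinase Uchl5 fell in hypoxia (-0.56), at 100 µM (-1.32) and at 200 µM (-1.06). Sem1, a small lid subunit outside the Psm names, fell by 0.92 and 0.52 with CoCl2.

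The segregase Vcp, which pulls ubiquitinated proteins out of membranes and complexes, and its cofactors made up a list of 8 measured genes. Of these 6 rose and 1 fell at 200 µM (19.7% and 22.3% of all genes), 4 rose at 100 µM, and 2 rose and 2 fell in hypoxia. Vcp fell by 0.36 ± 0.06 in hypoxia and rose by 0.58 ± 0.12 and 0.66 ± 0.12 with CoCl2, and its cofactor Ufd1 fell by 0.48 and rose by 0.44 and 1.50. Sel1l, a subunit of a ubiquitin ligase of the endoplasmic reticulum, rose by 0.39, 1.62 and 1.73.

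Of 11 regulators of proteasome genes, 4 rose and 1 fell in hypoxia, and 4 rose and 2 fell at each dose. Nfe2l1 itself rose by 0.53 ± 0.13 at 100 µM (limma adjusted p = 0.00319) and changed by 0.08 ± 0.13 at 200 µM and -0.13 ± 0.07 in hypoxia. Its small Maf partners Mafk and Mafg rose by 0.39 and 0.62 at 100 µM and by 1.27 and 0.91 at 200 µM. The related factor Nfe2l2 rose by 0.35 in hypoxia and changed by -0.29 and -0.30 with CoCl2. Nfyc, a subunit of NF-Y, which binds CCAAT boxes, fell in all of these comparisons (-0.41, -0.36 and -0.61). Nfe2l1 is controlled largely through its protein, which arrays do not measure.

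Of 15 measured genes of interferon signalling, 3 rose and 2 fell in hypoxia, 1 rose and 1 fell at 100 µM, and 5 rose and 2 fell at 200 µM. At 100 µM both shares lie below those of all genes. Irf1, which drives the immune subunit genes, changed by 0.03, 0.11 and -0.10 and did not pass the test. Relb rose by 0.62 and 0.43 with CoCl2, and the receptor gene Ifnar1 fell by 0.45 and 0.61. Of 12 measured genes of peptide trimming and MHC class I loading, 0 rose and 3 fell in hypoxia, 2 rose and 6 fell at 100 µM, and 1 rose and 3 fell at 200 µM. Tapbp, which loads peptide onto class I, rose by 0.98 and 0.72 with CoCl2, and the peptidase Ide fell by 0.84 in hypoxia and by 0.69 and 1.63 with CoCl2. Tap1, the neighbour of Psmb9 in the MHC region, changed by 0.02, 0.25 and 0.18 and did not pass the test. Of 3 measured genes of ubiquitin conjugation, Ube2d3 fell in hypoxia (-0.51) and with CoCl2 (-1.18 and -1.61), while Cdc34 fell by 0.63 in hypoxia and rose by 0.89 at 200 µM.

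Several probe sets were present for 7 of the 42 members, and these did not always move together. The brightest set of Psmb1 rose at both doses (0.68 and 0.47), while the set next in brightness changed by -0.12 ± 0.17 and 0.32 ± 0.17 and did not pass the test. For Psmd11 the fall in hypoxia was seen on 1 set (-0.30), whereas the others changed by -0.08 and -0.07. The rise of Psmd11 at 200 µM was 0.76 on its brightest set and 1.44 on the next. The sets of Psmc3 rose by 0.41, 1.17 and 0.37 at 200 µM. At 100 µM they changed by 0.04, 0.375 and 0.42, and only the dimmest set passed the test (limma adjusted p = 0.0103). The dimmer set of Psmb5 changed by 0.24 ± 0.13 and 0.14 ± 0.13 with CoCl2, where the brighter set gave -0.59 and 0.38. For Psmc5 the dimmer set (mean 3.16) changed by -0.05 in hypoxia and 0.17 at 200 µM, against -0.31 and 0.57. For Psmb4 the dimmer sets (means 5.56 and 2.13) changed by 0.14 and 0.20 in hypoxia, against -0.14. At 200 µM they changed by 0.31 and 0.16, against 0.40. For Psme1 the dimmer set (mean 2.70) changed by -0.38 at 100 µM and 0.12 at 200 µM, against -0.60 and -0.22. None of these dimmer sets of Psmb5, Psmc5, Psmb4 and Psme1 passed the test.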

How the data were processed

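RNA of an established mouse melanoma line was hybridised to 21 U74Av2 arrays. The authors deposited log2 intensities from RMA, which corrects background, normalises arrays and summarises probes, with GCOS 1.2 also named, per the submitters' processing notes. Which RMA version and probe definition were used, and if all arrays shared 1 run, is not given in the sources used here. Values ran from 1.36 to 13.3 and array medians from 5.44 to 5.53, and no further scaling was applied. Number of arrays and the lack of detection calls limit the precision, mostly for dim genes.

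Of 12488 probe sets, the 66 controls and the 396 that name more than 1 gene were set aside, and the 10833 naming 1 gene gave 8251 genes by the probe set with the highest mean. One mean per label group was fitted with limma 3.58.1 in R 4.3.3 (12 residual degrees of freedom, 20.9 after moderation). Tests were two-sided, with Benjamini-Hochberg adjustment over all 8251 genes (over 10833 probe sets where single probe sets are compared) and a call at adjusted p under 0.05. Each error printed is the model's standard error. The fitting step was tested on simulated data.

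The members and lists were chosen with earlier results of these data known. Named with values were the immune and catalytic genes, up to 5 called members with the largest change in each direction per comparison, and members whose groups, probe sets or sets differ. Promoter windows came from RefSeq (GRCm38.p6). Alternatives were median centring, quantile normalisation, leaving out genes under the 40th percentile of the mean, averaging probe sets, a variance trend, array weights, a replicate block, the Actb covariate, fewer sets and leaving out each array.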

Additional observations from a re-analysis of the deposited data

How the results depend on the processing

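For the hypoxia mean, 200 µM CoCl2 and CoCl2 against hypoxia, the member counts stayed within 1.5 times under median centring, quantile normalisation, the filter on dim genes, averaged probe sets, the variance trend, array weights, the block and the Actb covariate. With only the arrays of the sets compared in the fit, counts were 33 in the chamber, 7 in experiment 1, 12 in experiment 2, 5 at 100 µM, 15 at 200 µM, 1 for the dose step and 8 for chamber against incubator. With array weights the counts were 33, 11 and 10 in the hypoxia sets, where 50.3%, 25.4% and 21.3% of all genes passed. The dose step then called 5 (2.93%), and chamber against incubator called 13 (22.7%). With the Actb covariate the counts were 26 in the chamber (27.6% of all genes) and 11 in experiment 1 (20.3%). They were 0 for the dose step (1.87%) and 3 for chamber against incubator (4.79%). The cause of these shifts was not tested. Psma4 at 100 µM changed from -0.11 to 0.43 (adjusted p = 0.0352) with that covariate, the 1 member whose sign turned past the threshold. Since the Actb difference and dose cannot be told apart at 100 µM, no conclusion is drawn from this turn.

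Leaving out 1 array at a time, the counts ranged from 15 to 22 in the hypoxia mean, 7 to 26 in the chamber, 2 to 7 in experiment 1, 3 to 10 in experiment 2, 10 to 18 at 100 µM, 22 to 29 at 200 µM, 6 to 23 for the dose step, 20 to 30 for CoCl2 against hypoxia, 0 to 3 for chamber against incubator and 0 to 0 for experiment 1 against 2. Where a group kept 1 array, that array was assumed to vary like the other groups.

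Over single members in the hypoxia mean, at 100 µM and at 200 µM, calls were lost in 36, 39 and 51 and gained in 17, 25 and 15 of 1255 values each.

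With the replicate number as a block the count was 19 in the hypoxia mean (28.4% of all genes). Counts were 15, 5 and 6 in the sets (20.4%, 16.5% and 13.6%). They were 15 at 100 µM (37.1%), 26 at 200 µM (40.6%) and 15 for the dose step (15.8%). CoCl2 against hypoxia called 25 (22.9%). Chamber against incubator and experiment 1 against 2 each called 0 (1.66% and 0.23%). Residuals of same-numbered arrays within a set correlated between -0.37 and 0.235 over 12 pairs, so the numbers were not taken as pairs.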
